A study of Arabidopsis thaliana with 6 samples.

Results

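The genes described here are 39 Arabidopsis thaliana loci of salicylic acid synthesis, signalling and response, chosen by locus identifier from the 22426 loci of a deposited FPKM table, and all 39 were found in it. FPKM is a fragment count scaled to gene length and to the library total. The libraries came from total RNA of whole seedlings, 2 weeks old, of which 3 were labelled wild type and 3 were labelled NCBP mutant, with no other treatment named for either group. NCBP (AT5G18110) encodes a relative of eIF4E that binds the mRNA cap, and the labels name neither the mutant allele nor the ecotype of either group. All plants grew in a greenhouse at 22 °C under long days, 16 hours lit and 8 hours dark. The comparison asks which transcripts differ between plants with the mutation and the wild type.

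Salicylic acid is a phenolic hormone of plant immunity that is best known for raising defence against biotrophic pathogens. In Arabidopsis most of it is made in the plastid from chorismate through isochorismate, after signals that pass through EDS1 and its partners. It is sensed through the NPR proteins, which act on DNA through TGA transcription factors, and the PR genes are the classical readout of that response.

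The NCBP transcript was lower in each library labelled mutant, at 57.9, 59.2 and 55.8 FPKM against 97.4, 100.4 and 97.9 FPKM in wild type, so it was reduced and not absent. The log2 fold change was -0.76 (limma adjusted p 0.000146), and the 2-sided exact permutation p was 0.1, the smallest that 3 against 3 libraries allow. Absolute depth is unknown. Relative depth, read from genes under 0.5 FPKM, was 1.09 and 1.17 times that of wild-type replicate 1 in wild-type replicates 2 and 3. It was 1.24, 1.16 and 1.31 times that of wild-type replicate 1 in mutant replicates 1, 2 and 3. Leaf marker genes were high in both groups, with summed levels of 42309 to 51114 FPKM in wild type and 45690 to 49370 FPKM in the mutant, while 5 flower markers summed to at most 5.35 FPKM and 2 seed markers to at most 0.587 FPKM. The 9 root markers were all detected and summed to 208 to 221 FPKM in wild type and to 167 to 185 FPKM in the mutant, with 1 of 9 past the threshold as lower. The 2 xylem markers summed to 70.1 to 81.9 FPKM in wild type and to 57.4 to 69.1 FPKM in the mutant, with 0 of 2 past the threshold. The part of these marker differences in the results that follow was not tested. No label says that replicates were grown separately, so p-values rest on a spread between libraries that may be technical only.

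Among the salicylic acid genes, 6 rose in the mutant and 2 fell, while the 3 receptors did not pass the test. Genes were tested when their mean over the 6 libraries was at least 1 FPKM, which 31 of the 39 did, by limma on log2(FPKM + 1) with Benjamini-Hochberg adjustment over all 18064 genes tested. Past an adjusted p of 0.05, PR1, PCR1, PCC1, AT3G22235, NIMIN2 and WRKY70 rose, and ICS1 and UGT74F2 fell. These 6 genes are 19.4% of the tested members, where 6.27% of all genes tested were called higher. The share of 19.4% was partly set by the filter, which PR1, NIMIN2 and PCR1 passed only through their mutant libraries. The 2 that fell are 6.45%, where 8.44% of all genes were called lower. Because RNA was taken from whole seedlings, fewer cells of a type and less RNA per cell cannot be told apart.

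PR1, NIMIN2 and PCR1 had a wild-type mean under 1 FPKM and reached the filter only through their mutant libraries, so they had to differ. Among the 28 tested members with a wild-type mean of at least 1 FPKM, 3 were called higher and 2 lower, beside 6.12% and 8.52% of all genes with such a mean. Of the 31 tested members the groups did not overlap for 9 with the mutant higher and for 4 with the mutant lower, beside 16.4% and 19.1% of all genes tested. The 9 include PR1, NIMIN2 and PCR1, which had to differ. The median log2 fold change was 0.06 over the tested members and -0.003 over all genes tested. Over all 39 members with no filter it was 0.08, against 0.001 over all 22426 loci. With every library scaled to 1 common sum, the same numbers of members, 6 and 2, were called, although the split of all calls moved from 1133 higher and 1524 lower to 1286 and 1099. Without mutant replicate 1 the counts of members were 3 and 0, and without wild-type replicate 1, wild-type replicate 3 or mutant replicate 2 only 1 member was called lower.

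**Figure D1:**
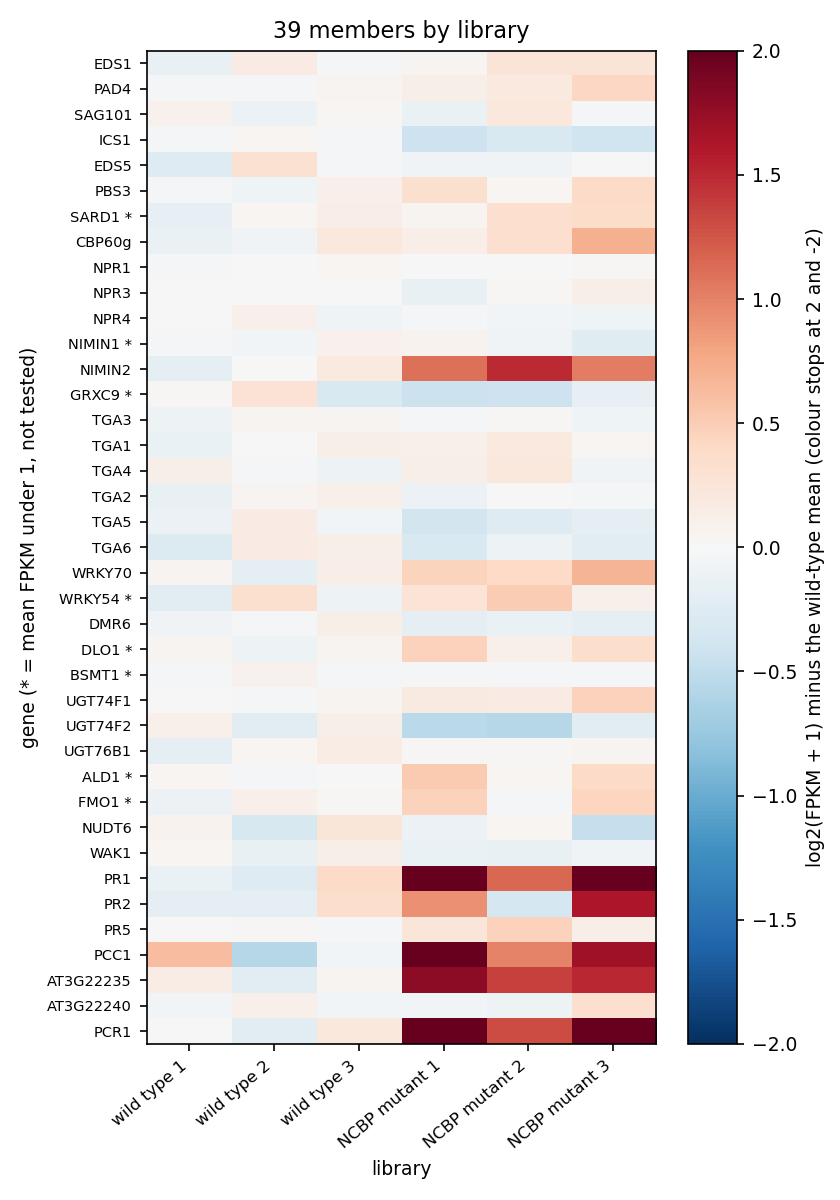
Each of the 39 genes (rows, in the order of their roles) in each of the 6 libraries (columns), as log2(FPKM + 1) minus the gene's wild-type mean, with an asterisk on the 8 genes that were not tested. The red cells of the 3 mutant libraries belong mainly to NIMIN2, PR1, PCC1, AT3G22235 and PCR1, and to PR2 in mutant replicates 1 and 3, while the NPR and TGA rows stay pale.

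**Figure D2:**
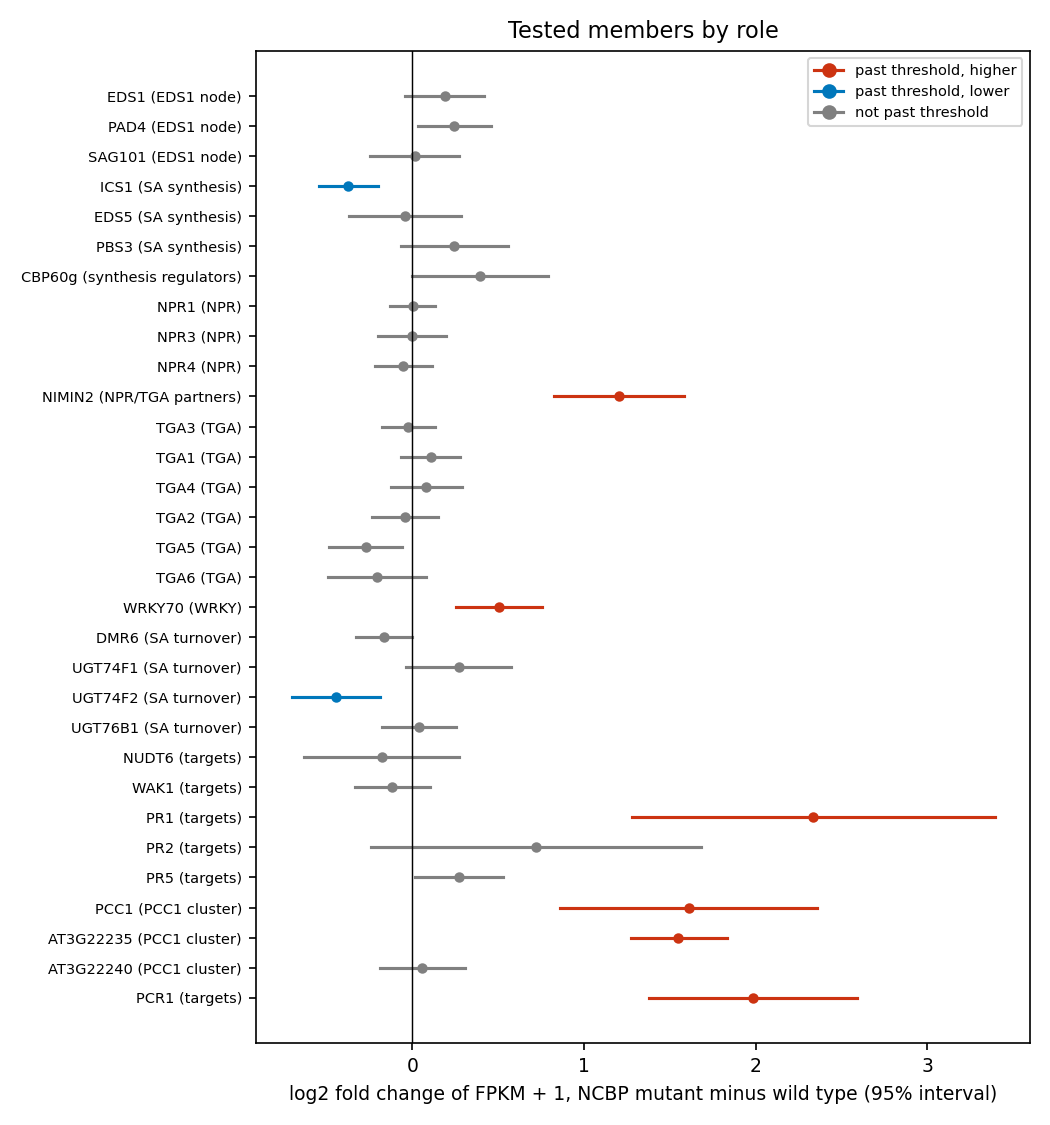
Log2 fold change of FPKM + 1, mutant minus wild type, for the 31 tested members with its 95% interval from limma; red and blue mark genes past the threshold as higher and lower. PR1, at 2.34, has the largest estimate among them and also the widest interval, from 1.28 to 3.39.

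Of the response genes, PR1 and PCR1 rose, while PR2, PR5, NUDT6 and WAK1 did not pass. PR1 (AT2G14610), a small secreted protein used as a marker of the salicylic acid response, had 0.183, 0.083 and 0.695 FPKM in wild-type replicates 1, 2 and 3 and 6.54, 1.87 and 11.9 FPKM in mutant replicates 1, 2 and 3. Each mutant library lay above the wild-type libraries, but they differed among themselves more than they did for most members, with mutant replicate 2 the lowest. The log2 fold change was 2.34 (SE 0.46, adjusted p 0.0137), and the ratio of the mean FPKM was 21.1. That ratio is taken against a low wild-type mean of 0.32 FPKM, for which the number of reads is unknown.

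PCR1 (AT1G14880), a membrane protein of the plant cadmium resistance family, had 0.891, 0.639 and 1.18 FPKM in wild type and 8.20, 3.65 and 8.79 FPKM in the mutant. The groups did not overlap, and mutant replicate 2 was again the lowest of its group. The log2 fold change was 1.98 (SE 0.27, adjusted p 0.00307), and it kept its call under each alternative that tested it, with adjusted p between 0.000776 and 0.0159. A pseudocount of 0.1 gave log2 fold changes of 2.74 for PCR1 and 3.97 for PR1, and a pseudocount of 5 gave 0.98 and 1.05. PR1 lost its call without mutant replicate 1 (adjusted p 0.0532) and with robust moderation (0.0561), and its adjusted p otherwise lay as low as 0.00212.

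PR2 (AT3G57260, BGL2), a secreted glucanase that attacks fungal cell walls, had 1.29, 1.30 and 2.30 FPKM in wild type and 3.86, 1.02 and 6.95 FPKM in the mutant. Mutant replicates 1 and 3 lay above the wild type and mutant replicate 2 below it, so the groups overlapped. The log2 fold change was 0.72 with a 95% interval from -0.24 to 1.69 (adjusted p 0.285). Without mutant replicate 2 it was 1.26 with an adjusted p of 0.0257, and over all alternatives the adjusted p ranged from 0.0257 to 0.66.

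PR5 (AT1G75040), a thaumatin-like protein, had 3.05, 3.13 and 3.01 FPKM in wild type and 3.82, 4.58 and 3.39 FPKM in the mutant. The mutant libraries were all higher, by a small margin, and here mutant replicate 2 was the highest. The log2 fold change was 0.27 (95% interval 0.02 to 0.53), which did not pass after adjustment (0.14). WAK1 (AT1G21250), a wall-associated receptor kinase, went from a mean of 5.37 to 4.86 FPKM (adjusted p 0.452), and NUDT6 (AT2G04450), a Nudix hydrolase, from 1.23 to 0.968 FPKM (adjusted p 0.59), with overlapping groups.

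**Figure D3:**
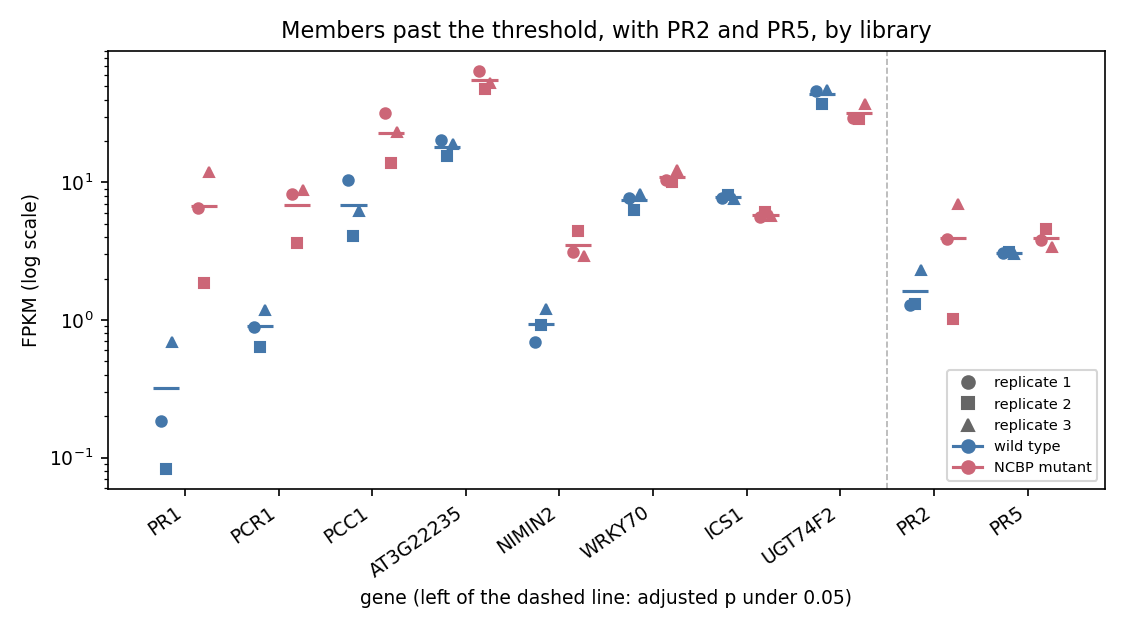
FPKM on a log scale for the 8 members past the threshold, in order of fold change, and for PR2 and PR5 to the right of the dashed line; symbols give the replicate, colours the group and short lines the group mean. Mutant replicate 2 (red squares) is the lowest mutant library for PR1, PCR1, PCC1, AT3G22235, WRKY70, UGT74F2 and PR2, and the highest for NIMIN2, ICS1 and PR5.

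PCC1 and its neighbour AT3G22235 rose together, and AT3G22240, a related locus on the same strand of chromosome 3, did not pass. PCC1 (AT3G22231), named for its control by pathogens and the circadian clock, had 10.4, 4.05 and 6.23 FPKM in wild type and 31.9, 13.8 and 23.2 FPKM in the mutant. All mutant libraries were above all wild-type libraries, with a log2 fold change of 1.61 (SE 0.33, adjusted p 0.0154). AT3G22235 had 20.2, 15.5 and 18.9 FPKM in wild type and 64.9, 48.0 and 53.2 FPKM in the mutant, a log2 fold change of 1.55 (SE 0.12, adjusted p 0.00036). It had the smallest adjusted p of the 31 tested members and kept its call under each alternative run. AT3G22240 was the most abundant of the 39 genes, at 103, 115 and 104 FPKM in wild type and 103, 99.9 and 135 FPKM in the mutant, with overlapping groups and a log2 fold change of 0.06 (95% interval -0.19 to 0.31, adjusted p 0.75).

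Measured against AT3G22240 in the same library, AT3G22235 stood at 0.196, 0.135 and 0.182 in wild type and at 0.629, 0.481 and 0.393 in the mutant. The corresponding ratio of PCC1 to AT3G22240 was 0.101, 0.0352 and 0.0601 in wild type and 0.309, 0.138 and 0.172 in the mutant. Neither ratio overlapped between the groups; the ratios were formed after the values were seen and were not tested. These loci share sequence. Of the exon windows of 50 bases in AT3G22235, 33.3% also occur in PCC1, 34.2% in AT3G22240 and 85.7% somewhere else in the genome, against 38.2% and 37.8% of the windows of PCC1 and AT3G22240. The sources used here do not give how reads fitting several loci were assigned, so the split of reads between the copies is uncertain. The summed FPKM of the 3 loci was 134, 135 and 129 in wild type and 200.1, 162 and 212 in the mutant, without overlap. Without mutant replicate 1 the adjusted p of PCC1 was 0.0528, and with robust moderation it was 0.0811, within a range of 0.00064 to 0.0811 over the alternatives.

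**Figure D4:**
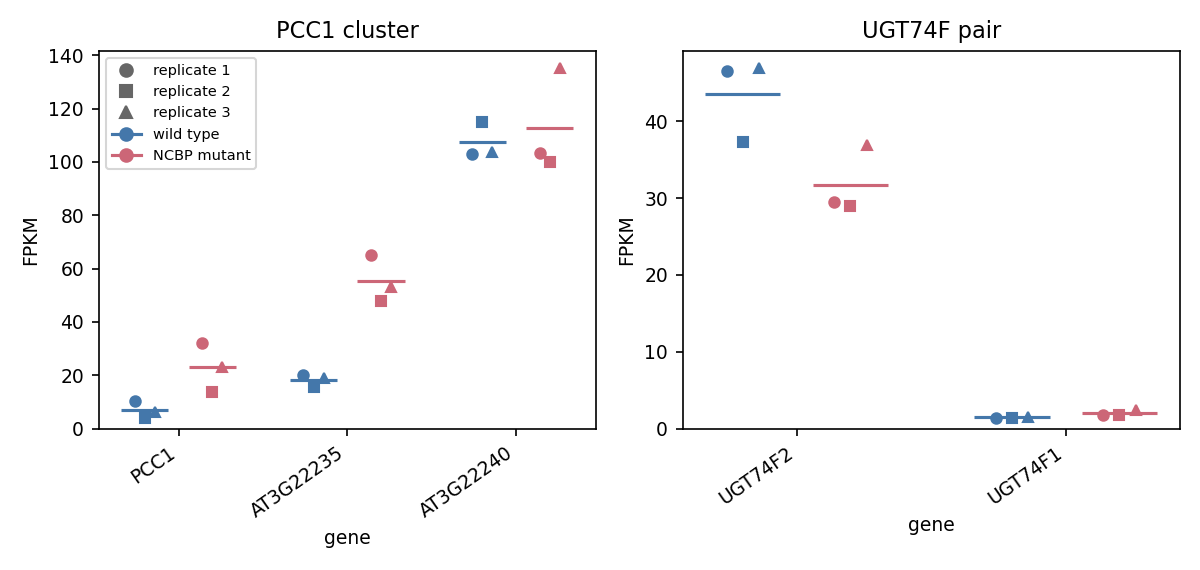
FPKM by library for the loci of the PCC1 cluster (left) and for the UGT74F pair (right), with symbols for replicates, colours for groups and short lines for group means; both axes start at 0. PCC1 and AT3G22235 are higher in the 3 mutant libraries while AT3G22240 overlaps, and UGT74F2 is lower in the mutant.

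The 250 bases before the annotated starts of these loci, taken from RefSeq TAIR10.1 by locus identifier, are shown for comparison. Whether differences there bear on the levels of the copies was not tested. All 3 lie on the minus strand and are written 5′ to 3′ in the direction of the gene, PCC1 at chr3:7846834-7847083, AT3G22235 at chr3:7855815-7856064 and AT3G22240 at chr3:7864896-7865145. The coordinates are those of TAIR10.1, and the build of the deposited table is not named. Capitals mark TGACG, the core that TGA factors bind, searched on both strands, where the other strand reads CGTCA.
PCC1: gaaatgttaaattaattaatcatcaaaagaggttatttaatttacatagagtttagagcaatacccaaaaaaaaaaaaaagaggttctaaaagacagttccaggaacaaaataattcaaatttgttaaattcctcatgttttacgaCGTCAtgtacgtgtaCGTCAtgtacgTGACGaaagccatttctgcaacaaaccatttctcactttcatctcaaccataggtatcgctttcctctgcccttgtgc
AT3G22235: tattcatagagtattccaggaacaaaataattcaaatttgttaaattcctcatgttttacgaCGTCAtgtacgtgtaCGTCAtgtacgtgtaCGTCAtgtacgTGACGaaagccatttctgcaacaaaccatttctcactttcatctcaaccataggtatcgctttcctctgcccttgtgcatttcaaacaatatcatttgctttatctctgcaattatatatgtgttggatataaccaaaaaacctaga
AT3G22240: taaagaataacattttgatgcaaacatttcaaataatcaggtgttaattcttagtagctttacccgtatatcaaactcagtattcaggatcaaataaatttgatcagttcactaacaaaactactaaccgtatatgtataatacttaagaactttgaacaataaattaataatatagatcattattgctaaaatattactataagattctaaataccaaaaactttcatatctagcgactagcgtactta
PCC1 holds 3 matches, whose upstream ends lie 104, 89 and 78 bases before the start, and AT3G22235 holds 4, at 188, 173, 158 and 147 bases. At least 3 matches occur in 0.583% and at least 4 in 0.106% of 27443 promoters of protein-coding genes of this length, and at least 1 occurs in 18.6%. Matches that overlap on opposite strands are counted separately in these shares. The PCC1 and AT3G22235 windows share an unbroken run of 105 bases, while the longest run either shares with AT3G22240 is 9 bases. AT3G22240 has no match within these letters, which says nothing of sequence outside the window.

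None of the 3 NPR proteins passed the threshold. NPR1 (AT1G64280), the coactivator that salicylic acid signalling depends on, had 15.7, 15.9 and 16.4 FPKM in wild type and 15.9, 15.9 and 16.2 FPKM in the mutant. Its log2 fold change was 0.002, with a 95% interval from -0.13 to 0.13 (adjusted p 0.987). NPR3 (AT5G45110) and NPR4 (AT4G19660), which repress the same targets, went from 7.25 ± 0.0135 to 7.26 ± 0.779 FPKM and from 11.7 ± 0.858 to 11.2 ± 0.303 FPKM (SD, n = 3), with 95% intervals of -0.20 to 0.20 and -0.22 to 0.11 on the log2 scale and adjusted p of 0.994 and 0.67. NPR1 shares 8.19% of its exonic length with AT1G08667 on the opposite strand, and the sources used here do not give whether the libraries kept the strand.

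NIMIN2 (AT3G25882), a small protein that binds NPR1 and is itself induced by salicylic acid, rose in the mutant. It had 0.695, 0.92 and 1.21 FPKM in wild type and 3.13, 4.44 and 2.90 FPKM in the mutant, where mutant replicate 2 was the highest. The groups were well apart, with a log2 fold change of 1.2 (SE 0.17, adjusted p 0.00361) and a ratio of mean FPKM of 3.71. It kept its call under each alternative that tested it, with adjusted p between 0.00204 and 0.0144, and its log2 fold change was 1.79 and 0.51 with the smaller and the larger pseudocount. Its relative NIMIN1 (AT1G02450) had 0.152, 0.145 and 0.264 FPKM in wild type and 0.246, 0.133 and 0 FPKM in the mutant. GRXC9 (AT1G28480, GRX480), a glutaredoxin that binds TGA factors, had 0.942, 1.35 and 0.551 FPKM in wild type and 0.418, 0.442 and 0.721 FPKM in the mutant. The mutant mean of each was lower, with overlapping groups. Both were under the filter and were not tested.

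None of the 6 TGA factors passed the threshold. TGA1 and TGA3 were the most abundant, at 36.4 ± 3.28 and 20.2 ± 1.34 FPKM in wild type and 39.3 ± 2.17 and 19.8 ± 0.774 FPKM in the mutant (SD, n = 3). TGA4 went from 13.8 to 14.7 FPKM, TGA2 from 9.86 to 9.52 FPKM and TGA6 from 6.82 to 5.73 FPKM, with overlapping groups and adjusted p of 0.592, 0.775 and 0.312. TGA5 (AT5G06960) had 11.4, 14.2 and 12.0 FPKM in wild type and 9.42, 10.2 and 10.9 FPKM in the mutant, so that the mutant libraries were lower without overlap. Its log2 fold change of -0.27 (95% interval -0.48 to -0.06) did not pass after adjustment (0.0863). TGA5 and its neighbour TGA2, which act redundantly with TGA6, stood in a ratio of 1.30, 1.39 and 1.13 in wild type and 1.04, 1.04 and 1.13 in the mutant. TGA6 shares 10.9% of its exonic length with AT3G02485 on the opposite strand.

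WRKY70 (AT3G56400), a transcription factor downstream of NPR1 that favours salicylic acid over jasmonate responses, had 7.76, 6.35 and 8.21 FPKM in wild type and 10.4, 10.0 and 12.4 FPKM in the mutant. The mutant libraries were all higher, with a log2 fold change of 0.50 (SE 0.11, adjusted p 0.019). The call was lost without mutant replicate 1 (adjusted p 0.0515) or 3 (0.0579), in a range of 0.0139 to 0.0579 over the alternatives. WRKY54 (AT2G40750), its closest relative and partner, lay under the filter at 0.487, 1.17 and 0.618 FPKM in wild type and 1.11, 1.48 and 0.856 FPKM in the mutant, with overlapping groups.

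NIMIN2 and WRKY70, which also rose, hold the TGA core close to the annotated start, and their 250 bases upstream are shown. They come from the same RefSeq assembly, TAIR10.1, on the minus strand, NIMIN2 at chr3:9471040-9471289 and WRKY70 at chr3:20910624-20910873, written in the direction of the gene. Capitals mark TGACG and the W box, the site of WRKY factors, searched as TTGACC and TTGACT on both strands, where the other strand reads GGTCAA and AGTCAA.
NIMIN2: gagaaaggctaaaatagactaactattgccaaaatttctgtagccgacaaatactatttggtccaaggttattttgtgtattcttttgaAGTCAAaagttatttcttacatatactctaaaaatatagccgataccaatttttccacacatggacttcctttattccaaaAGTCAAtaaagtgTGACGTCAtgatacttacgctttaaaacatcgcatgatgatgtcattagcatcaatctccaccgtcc
WRKY70: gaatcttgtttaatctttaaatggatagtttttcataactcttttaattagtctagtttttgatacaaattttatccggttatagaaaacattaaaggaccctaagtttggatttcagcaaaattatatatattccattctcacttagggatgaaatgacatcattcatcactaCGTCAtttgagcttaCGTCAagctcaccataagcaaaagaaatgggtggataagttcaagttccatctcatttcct
NIMIN2 has W boxes at 161 and 80 bases before the start, and TGA cores at 67 and 64 bases that overlap on opposite strands. WRKY70 has TGA cores at 76 and 61 bases. A W box occurs in 28.4% of all 27443 promoters, and a W box together with a TGA core in 5.30%, a combination that NIMIN2 alone among the 39 members had. The TGA core was present in 4 of the 6 members that rose, in 0 of the 2 that fell, in 4 of the 23 that did not pass and in 3 of the 8 that were not tested. It occurs in 18.6% of all 27443 promoters. The 4 that rose include PCC1 and AT3G22235, whose windows share a run of 105 bases. NPR4, which did not pass, had cores closer to the start, at 39 and 24 bases. SARD1 and DLO1, which were not tested, had 3 and 2 cores, of which 2 in each overlap on opposite strands. PR1 and PCR1, which rose most, had neither motif in this window. A match is a run of letters and no measure of binding.

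**Figure D5:**
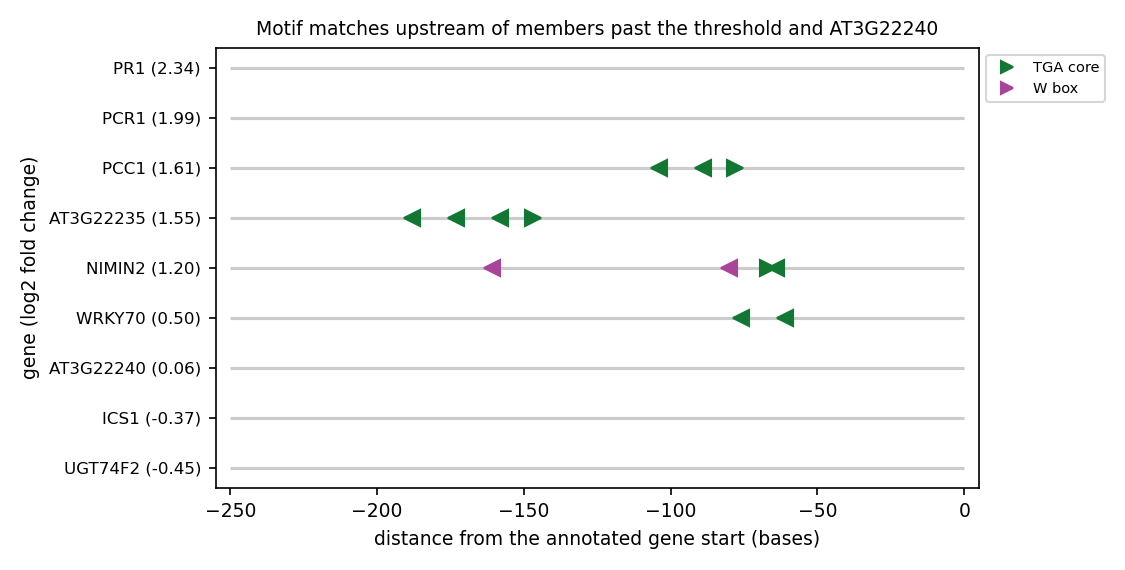
Motif matches in the 250 bases before the annotated start of the 8 members past the threshold and AT3G22240, ordered by log2 fold change (in brackets); arrowheads mark the upstream end of a match and point along its strand, green for TGACG and purple for the W box. PCC1 and AT3G22235 show the same spacing of 3 arrowheads, with 1 more in AT3G22235, and PR1, PCR1, AT3G22240, ICS1 and UGT74F2 show none.

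Of the 3 genes of the synthesis route, 1 fell and 2 did not pass the test. ICS1 (AT1G74710, EDS16), the isochorismate synthase that starts the route, had 7.66, 8.07 and 7.62 FPKM in wild type and 5.59, 6.09 and 5.67 FPKM in the mutant. Each mutant library was lower than each wild-type library and the replicates lay close together, with a log2 fold change of -0.37 (SE 0.08, adjusted p 0.0148). Without mutant replicate 1 the adjusted p was 0.0562, in a range of 0.014 to 0.0562 over the alternatives. EDS5 (AT4G39030), the plastid exporter of the route, had 2.89, 4.78 and 3.55 FPKM in wild type and 3.48, 3.47 and 3.66 FPKM in the mutant (adjusted p 0.867). PBS3 (AT5G13320), which joins isochorismate to glutamate, went from 1.61 ± 0.166 to 2.11 ± 0.38 FPKM, with overlapping groups and an adjusted p of 0.262.

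CBP60g, SARD1, EDS1, PAD4 and SAG101 had higher means in the mutant, that of SAG101 by little. SARD1 was not tested, and the others did not pass the threshold. CBP60g (AT5G26920), a calmodulin-binding activator of ICS1, had 1.43, 1.56 and 2.10 FPKM in wild type and 1.93, 2.38 and 3.41 FPKM in the mutant (log2 fold change 0.39, 95% interval -0.003 to 0.79, adjusted p 0.165). SARD1 (AT1G73805), its relative, lay under the filter, between 0.096 and 0.584 FPKM over the libraries, and shares 18.4% of its exonic length with AT1G73790 on the opposite strand. EDS1 (AT3G48090), the lipase-like hub of this signalling, had 6.71, 8.56 and 7.36 FPKM in wild type and 7.87, 9.13 and 9.15 FPKM in the mutant (log2 fold change 0.19, 95% interval -0.04 to 0.42, adjusted p 0.243). Its partner PAD4 (AT3G52430) had 7.35, 7.24 and 7.77 FPKM in wild type and 8.15, 8.69 and 10.3 FPKM in the mutant, where the groups did not overlap but the adjusted p was 0.114. SAG101 (AT5G14930), the other partner, had means of 4.82 and 4.90 FPKM (adjusted p 0.948).

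Of 6 enzymes that modify salicylic acid, 4 were tested, and UGT74F2 was the only one past the threshold, as lower. UGT74F2 (AT2G43820), a glucosyltransferase that forms the glucose ester of salicylic acid, had 46.5, 37.3 and 46.9 FPKM in wild type and 29.5, 28.9 and 36.9 FPKM in the mutant. The highest mutant library lay just under the lowest wild-type library, with a log2 fold change of -0.44 (SE 0.11, adjusted p 0.0329). The adjusted p was 0.0966 and 0.0987 when wild-type replicate 1 or 3 was left out, and the call also failed without mutant replicate 1 (0.106) or 2 (0.107) and with no filter on low values (0.0619), with a lowest value of 0.0196 over the alternatives. UGT74F1 (AT2G43840), its neighbour, which forms the glucoside, had 1.43, 1.38 and 1.56 FPKM in wild type and 1.78, 1.75 and 2.39 FPKM in the mutant (adjusted p 0.211). The ratio of UGT74F2 to UGT74F1 was 32.5, 27.1 and 30.1 in wild type and 16.6, 16.6 and 15.4 in the mutant, without overlap, and was formed after the values were seen and not tested. UGT74F1 shares 22.7% of its exonic length with AT2G09505 on the opposite strand.

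DMR6 (AT5G24530), a hydroxylase that breaks down salicylic acid, had 12.7, 13.0 and 14.7 FPKM in wild type and 11.7, 12.2 and 11.7 FPKM in the mutant. The mutant libraries were lower without overlap, with a log2 fold change of -0.16 (adjusted p 0.162). DLO1 (AT4G10500), a hydroxylase of the same family, was under the filter, at 0.341, 0.204 and 0.335 FPKM in wild type and 0.777, 0.391 and 0.647 FPKM in the mutant. UGT76B1 (AT3G11340), another glucosyltransferase of immune signals, had means of 8.43 and 8.64 FPKM (adjusted p 0.826). BSMT1 (AT3G11480), which makes the volatile methyl salicylate, was listed at 0 in 5 of the 6 libraries.

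ALD1 and FMO1, which make the mobile immune signal N-hydroxypipecolic acid, were scarce and not tested. ALD1 (AT2G13810) had 0.29, 0.228 and 0.246 FPKM in wild type and 0.797, 0.285 and 0.632 FPKM in the mutant. FMO1 (AT1G19250) had 0.0326, 0.209 and 0.138 FPKM in wild type and 0.551, 0.112 and 0.522 FPKM in the mutant. In both genes mutant replicates 1 and 3 lay above the wild type and mutant replicate 2 lay within its range, and it was likewise the lowest mutant library for PR1, PCR1 and PR2.

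The mutant libraries were thus uneven in the response genes. Mutant replicate 2 was the lowest mutant library for 4 of the 6 response genes outside the PCC1 cluster, for 3 of the 3 loci of the cluster and for both ALD1 and FMO1. It was the lowest mutant library for 28.3% of all 18064 genes tested and for 41.9% of the 31 tested members. The exceptions were PR5 and NUDT6, in which mutant replicate 3 was the lowest. NIMIN2, which also rose, was highest in mutant replicate 2. Such an order was not confined to the mutant. Wild-type replicate 2 was the lowest wild-type library for PR1, PCR1, WAK1, NUDT6, PCC1, AT3G22235 and ALD1. It was not the lowest for PR2, PR5, AT3G22240 or FMO1.

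The order of levels among the members shifted in the mutant. In wild type AT3G22240, at 107 ± 6.76 FPKM, ranked above UGT74F2, at 43.6 ± 5.42 FPKM, and TGA1, at 36.4 ± 3.28 FPKM, and the ranges of UGT74F2 and TGA1 overlapped. In the mutant AT3G22235, at 55.4 ± 8.67 FPKM, ranked next after AT3G22240, and PCC1 moved from rank 18 to rank 5. PR1 moved from rank 33 to rank 19 of the 39, and ICS1 from rank 13 to rank 20. These ranks are of group means, and the mutant libraries of PR1 ranged from 1.87 to 11.9 FPKM. The ranks of the PCC1 cluster also depend on the uncertain split of reads between the copies. In the mutant PR1 averaged 6.77 ± 5.02 FPKM and NPR1 16.0 ± 0.204 FPKM, and PR1 lay below NPR1 in each of the 3 mutant libraries, most closely in replicate 3.

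Of 65 other genes of the pathway and of immunity, in 6 lists, 63 were in the table and 53 were tested, of which 9 rose and 3 fell, beside the 6.27% and 8.44% of all genes. Of 17 tested upstream immune regulators, 2 rose and 0 fell, with a median log2 fold change of -0.035. ACD6 (AT4G14400), an ankyrin-repeat membrane protein that promotes salicylic acid signalling, had 5.44, 6.001 and 6.23 FPKM in wild type and 12.8, 11.0 and 12.0 FPKM in the mutant (log2 fold change 0.91, SE 0.08, adjusted p 0.00065). RIN4 (AT3G25070), a guarded immune regulator, rose from 19.5 ± 1.39 to 24.2 ± 1.16 FPKM (adjusted p 0.0246). Of 6 further synthesis genes, 2 rose and 0 fell. They were PAL1 (AT2G37040) and PAL2 (AT3G53260), the entry enzymes of phenylpropanoid synthesis, from 48.6 to 62.7 FPKM and from 65.6 to 84.2 FPKM (adjusted p 0.0058 and 0.00539). Of 7 further NPR, CUL3 and TGA genes, 0 rose and 0 fell. RIN4 lost its call when wild-type replicate 1 or 2 or mutant replicate 2 or 3 was left out (adjusted p 0.0632, 0.0665, 0.0904 and 0.0674), while ACD6, PAL1 and PAL2 kept theirs under each alternative run.

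The counts of the lists below stand beside 6.27% called higher and 8.44% called lower of all genes tested. Of 7 tested methyl esterase and mobile-signal genes, 1 rose and 3 fell. MES1 (AT2G23620) and MES9 (AT4G37150), esterases that release salicylic acid from its methyl ester, fell from 4.49 ± 0.625 to 2.60 ± 0.509 FPKM and from 12.8 ± 1.26 to 9.77 ± 0.544 FPKM (adjusted p 0.022 and 0.0261). DIR1 (AT5G48485), a lipid transfer protein of systemic resistance, fell from 157 ± 10.6 to 130.4 ± 3.73 FPKM (adjusted p 0.0216). AZI1 (AT4G12470), a lipid transfer protein of the same process, rose from 120.5 ± 15.5 to 169 ± 19.8 FPKM (adjusted p 0.0197). Of 7 tested further genes induced by salicylic acid, 1 rose and 0 fell, with a median log2 fold change of 0.032. The gene that rose was LURP1 (AT2G14560), needed for basal defence to a downy mildew. It had 2.03, 1.17 and 3.42 FPKM in wild type and 5.98, 5.31 and 7.72 FPKM in the mutant (log2 fold change 1.24, SE 0.24, adjusted p 0.0123). Here too mutant replicate 2 was the lowest mutant library. AIG1, AED1 and GRXS13 had lower means in the mutant (log2 fold changes -0.50, -0.35 and -0.35). PNP-A, WAK2 and PCR2 had higher means (0.21, 0.23 and 0.03), and none of these passed the threshold. Of 9 tested genes of pattern-triggered immunity, camalexin and other defence, 3 rose and 0 fell. FLS2 (AT5G46330), the flagellin receptor, rose from 5.80 ± 0.198 to 8.11 ± 0.392 FPKM and PR4 (AT3G04720) from 91.1 ± 1.88 to 119 ± 12.2 FPKM. The camalexin gene PAD3 also rose, and the adjusted p of FLS2, PR4 and PAD3 was 0.00952, 0.0128 and 0.0126. PR4 is among the other defence genes, of which PDF1.2 and PR3 did not pass (adjusted p 0.891 and 0.495). The calls of LURP1, FLS2, PR4 and PAD3 held under each alternative that tested them, whereas leaving out a single library could end those of MES1, MES9, DIR1 and AZI1. MES1 failed without wild-type replicate 2 or 3 or mutant replicate 3 (adjusted p 0.0612, 0.0735 and 0.0552). MES9 failed without wild-type replicate 2 or 3 or any mutant replicate (0.0506 to 0.0855), and also when all libraries were scaled to 1 common sum (0.0532). DIR1 failed without wild-type replicate 1 or 2 or any mutant replicate (0.0562 to 0.0763), and AZI1 without mutant replicate 2 or 3 (0.0603 and 0.0585).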

How the data were processed

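RNA sequencing of 6 libraries was deposited as a single table of FPKM made by the authors. HISAT2 is named without a version, per the submitters' processing notes, while the sources used here do not give the FPKM program, build, annotation, read length or strandedness. The 39 members were matched by locus identifier, all 39 also in RefSeq TAIR10.1, which gave names, exons and upstream sequence. The deposited values were put on the scale log2(FPKM + 1), which understates fold changes of low genes. Loci averaging 1 FPKM or more were fitted by limma (version 3.58.1, R version 4.3.3) with a variance trend, 2-sided, adjusted by Benjamini-Hochberg over all genes tested. The procedure was tested on simulated data. Relative depth is the most frequent ratio to wild-type replicate 1 among genes under 0.5 FPKM in both libraries, in a bin 0.01 wide on the log2 scale. That bin held 37 of 1390 genes for wild-type replicate 2 and 98 of 1360 for mutant replicate 1. Members, lists and tests were chosen with earlier results of these data known. The rule named every member, with full values for those past the threshold, PR1, PR2, PR5 and the leading gene of each role, and list genes past the threshold. The alternatives changed the pseudocount (0.1 or 5), the filter (none, or a mean of 5) and the scaling or model: rescaling to the same sum, median-ratio scaling, robust moderation, a replicate block and leaving out each library.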

Additional observations from a re-analysis of the deposited data

How the results depend on the processing

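Of 423 values of single members under 14 alternatives, 394 kept their direction and their side of the threshold, 12 lost a call, 1 gained it (PR2) and 16 changed sign. Changes of sign affected only members that did not pass. They were NPR3 at 0.022 and TGA3 at 0.002 after rescaling to the same sum, NPR3 at 0.003 after median-ratio scaling, and otherwise came from leaving out a library. Over these 6 fits the log2 fold change ranged from -0.085 to 0.087 for SAG101, -0.177 to 0.109 for EDS5, -0.009 to 0.018 for NPR1, -0.061 to 0.074 for NPR3, -0.077 to 0.006 for TGA3, -0.116 to 0.008 for TGA2, -0.059 to 0.111 for UGT76B1 and -0.077 to 0.139 for AT3G22240. Leaving out each library gave 3 to 7 members called higher, 0 to 2 called lower and 1307 to 1908 genes called in all. A mean FPKM of at least 5 left 3 members called higher, because PR1, PCR1 and NIMIN2 are then not tested, and no filter left 1 called lower. The correlations of same-numbered deviations were 0.0705, -0.0716 and -0.0596 over 18064 genes. They cannot decide whether the replicate numbers pair the libraries for single genes. A replicate block lowered the SE of PCC1 from 0.33 to 0.077 and that of PR1 from 0.465 to 0.289. It raised the SE of ICS1 from 0.076 to 0.08 and that of NUDT6 from 0.198 to 0.224. With a replicate block 6 members were higher and 2 lower, 1991 genes were called in all, and NCBP stayed at -0.76, while MES1 and MES9 of the other lists lost their calls (adjusted p 0.054 and 0.0595). Without absolute depth, members under 1 FPKM have no known counting error.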
